A study of Mus musculus with 8 samples.

Results

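The miR-29 family was examined in the testes of mice kept on a standard diet (SD mice) or on a Western-like diet rich in sugar and fat (WD mice). Its members were the entries of the miRNA class named mmu-miR-29a, mmu-miR-29b or mmu-miR-29c with a 3p or 5p ending, where 3p and 5p name the strand cut from the right or the left side of the precursor hairpin. The rule found 7 members, 3 of them 3p arms and 4 of them 5p arms, among 576 mature miRNA names and 20558 small RNAs in all. All 7 passed the filter on low counts, and no other entry of the 4 miR-29 genes was listed. The 8 mice were adult C57Bl/6 males, and 1 library of the small RNA fraction of the testis was read from each. M1N, M2N, TN1 and TN2 were the SD mice, and M1W, M2W, M3W and M5W were the WD mice. By the labels the diet began at 4 weeks of age and the males were mated at 4 months, whereas the study's methods give a younger age at the start of the diet. The growth protocol in the labels describes a lipid-rich diet for all 8 mice, and the SD mice were placed in their group by the word control in their titles. Whole testis holds germ cells of every stage together with Sertoli, Leydig, vascular and blood cells, so fewer cells of a type and less RNA per cell cannot be told apart.

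A miRNA is cut from a hairpin transcript by Drosha and Dicer, and usually the strand loaded into an Argonaute protein is kept while its partner is degraded. Bases 2 to 8 of the loaded strand, the seed, pair with target mRNAs. In the miR-29 family the 3p arm is the known guide strand. Its known targets include mRNAs of collagens, elastin and the de novo DNA methyltransferases, and the family has been studied in fibrosis and in insulin-responsive tissues. The embryo injections of the study used a synthetic RNA called mir-29a, whose sequence is the 5p arm extended by a base at either end.

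The mature sequences below show which members could share targets. They were taken from RefSeq (build GRCm38.p6), where all 7 names matched, and the seed is in capitals.
mmu-miR-29a-3p: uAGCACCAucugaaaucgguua
mmu-miR-29b-3p: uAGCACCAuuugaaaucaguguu
mmu-miR-29c-3p: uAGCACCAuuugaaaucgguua
mmu-miR-29a-5p: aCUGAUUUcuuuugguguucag
mmu-miR-29b-1-5p: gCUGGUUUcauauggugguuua
mmu-miR-29b-2-5p: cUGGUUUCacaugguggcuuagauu
mmu-miR-29c-5p: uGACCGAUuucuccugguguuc
The 3p arms had the seed AGCACCA in common, which no other of 1679 mature mouse names in the table carried. The 5p arms had 4 different seeds. That of miR-29b-2-5p, UGGUUUC, was also the seed of miR-6338, and the other 3 seeds were found in no other name. Counted from the 5′ end, miR-29a-3p and miR-29c-3p differed at C10U alone. miR-29a-3p and miR-29b-3p differed at C10U, G18A, U21G and A22U over 22 bases. miR-29b-3p was the only member to end in AGUGUU, known as a signal for import into the nucleus. Between miR-29b-1-5p and miR-29b-2-5p, aligned over 21 bases, the differences were U11C and U19C by the positions of the former. The study aligned reads with up to 2 mismatches. A read of miR-29a-3p could therefore match the Mir29c hairpin, and a read of miR-29b-1-5p the Mir29b-2 hairpin, and the split of counts within these pairs is uncertain.

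The 4 hairpins are shown with their mature arms in capitals, since both arms are compared below. Each matched the NCBIM37 (mm9) genome once on its chromosome.
Mir29a: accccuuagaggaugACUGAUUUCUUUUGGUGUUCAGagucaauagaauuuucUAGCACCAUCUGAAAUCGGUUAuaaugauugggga
Mir29b-1: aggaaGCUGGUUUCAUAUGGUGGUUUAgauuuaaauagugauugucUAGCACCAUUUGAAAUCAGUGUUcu
Mir29b-2: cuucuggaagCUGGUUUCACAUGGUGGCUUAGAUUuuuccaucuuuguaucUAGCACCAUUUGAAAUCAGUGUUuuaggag
Mir29c: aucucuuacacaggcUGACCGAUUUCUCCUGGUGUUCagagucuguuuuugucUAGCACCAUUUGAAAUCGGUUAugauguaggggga
Mir29a lies at chr6:31012660-31012747 and Mir29b-1 at chr6:31013023-31013093, both on the minus strand with 275 bases between them. Mir29b-2 at chr1:196863234-196863314 and Mir29c at chr1:196863741-196863828 lie on the plus strand with 426 bases between them, both inside an exon of the annotated long non-coding RNA A330023F24Rik. Mir29b-1 and Mir29b-2 encode the identical 3p arm, so the count of miR-29b-3p could come from either gene, whereas their 5p arms carry separate names.

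The libraries held 2064562 to 3253798 counts, 9.23 to 12.7% of them in the miRNA class. M2W had the highest share of the class with 12.7%, followed by M1N with 10.7% and M2N with 10.6%. The tissue label was checked against miRNAs known from male germ cells. All 14 listed germ cell miRNAs were counted in the table, and together they took 17.5 to 21.3% of mature miRNA counts in SD mice and 14.9 to 20.8% in WD mice. The SD mice named M and those named TN gave very different comparisons with the WD mice. By the criteria the study set for miRNAs (p at or below 0.1 before adjustment, together with at least a 1.5-fold change), 31.3% of all small RNAs tested were called against M1N and M2N alone and 3.22% against TN1 and TN2 alone. What distinguishes the pairs is not stated in the labels, so the fold changes of the members and the ratios of their arms are also given against either pair.

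The 3p arms were among the most abundant miRNAs of the testis, and the 5p arms lay far below them. Levels are given as CPM, counts scaled to a common library size with TMM factors, which correct for composition, and are compared between members that differ by at most 3 bases in length. miR-29a-3p averaged 2975 ± 579 CPM (SD, n = 8) and ranked 11 among 576 mature names. miR-29b-3p followed at 2492 ± 384 CPM and rank 12, and miR-29c-3p at 491 ± 126 CPM and rank 48. The most abundant 5p arm, miR-29c-5p, reached 16.3 ± 4.87 CPM and rank 220. miR-29a-5p averaged 12.8 ± 4.07 CPM (rank 237), miR-29b-2-5p 4.99 ± 2.26 CPM (rank 328) and miR-29b-1-5p 4.48 ± 1.74 CPM (rank 337). The family took 5.53 to 6.36% of mature miRNA counts in each mouse, and the 3p arms supplied 99.2 to 99.6% of the family's counts.

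miR-29a-3p lay above miR-29b-3p in 8 of 8 mice although the mean differed by only 1.19-fold. miR-29b-3p lay 5.07-fold above miR-29c-3p and miR-29c-3p 30.1-fold above miR-29c-5p, each in 8 of 8 mice. Among the 5p arms the order was less regular. miR-29c-5p was above miR-29a-5p in 5 of 8 mice, miR-29a-5p above miR-29b-2-5p in 7 and miR-29b-2-5p above miR-29b-1-5p in 6. The first and the last of these neighbours did not differ beyond their spread between mice. Outside the family, miR-29a-3p stood next to miR-125b-5p (3030 ± 1068 CPM), which was the higher of the pair in 3 of 8 mice, and miR-29b-3p next to miR-15b-5p (2138 ± 128 CPM). miR-93-5p (544 ± 66.4 CPM) and miR-468-5p (474 ± 150 CPM) flanked miR-29c-3p. miR-15b-3p (16.4 CPM) and miR-674-5p (15.97 CPM) flanked miR-29c-5p, miR-96-5p (12.87 CPM) and miR-149-5p (12.84 CPM) flanked miR-29a-5p, miR-188-3p (5.04 CPM) and miR-744-3p (4.92 CPM) flanked miR-29b-2-5p, and miR-450a-5p (4.54 CPM) and miR-351-3p (4.46 CPM) flanked miR-29b-1-5p.

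**Figure D1:**
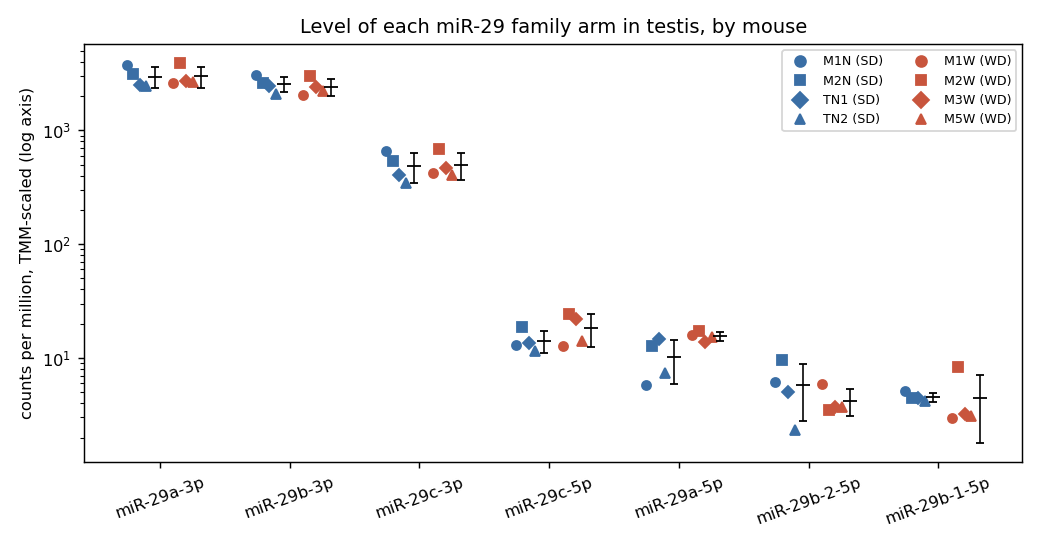
Level of each family member in every mouse, in TMM-scaled CPM on a log axis, with SD mice in blue and WD mice in red. Black bars give the mean ± SD of each group of 4 mice. The 3 guide arms lie between 342 and 3913 CPM and the 4 partner arms between 2.32 and 24.6 CPM, and the diets overlap for every member.

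No member of the family was called different between the diets, by the study's criteria or by adjusted p. By the study's criteria 0 of the 7 members were called, against 10.7% of all 16955 small RNAs tested and 15.1% of the 418 tested entries of the miRNA class. With p adjusted over all small RNAs tested (edgeR, Benjamini-Hochberg, limit 0.05) the share called was 0.0%, for the family and for the whole table alike. At an unadjusted p under 0.05, edgeR's test gave 0 of 7 members and 2474 of 16955 small RNAs. The levels of SD and WD mice overlapped for all 7 members. They did not overlap for 5.69% of the small RNAs tested. With shares this small in the whole table, 0 of 7 members says little about the family. The median absolute log2 fold change was 0.09 over the members, 0.25 over all small RNAs tested and 0.30 over the miRNA class. A p over the threshold does not show that levels were equal.

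Among the guide arms, miR-29a-3p was counted 11037, 9841, 7922 and 5317 times in M1N, M2N, TN1 and TN2, and 7875, 8924, 5948 and 8610 times in M1W, M2W, M3W and M5W. Scaled to library size these were 3783, 3138, 2495 and 2463 CPM in SD mice and 2589, 3913, 2741 and 2678 CPM in WD mice. M1N, M2N and M2W were thus the high libraries and the diets were interleaved. The mean was 2970 ± 625 CPM in SD mice and 2980 ± 625 CPM in WD mice (SD, n = 4 each), and the log2 fold change was 0.01 (SE 0.20, adjusted p = 0.991, edgeR).

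miR-29b-3p, the arm made by both miR-29b genes, had 3064, 2618, 2453 and 2106 CPM in M1N, M2N, TN1 and TN2. In WD mice it had 2062, 3007, 2422 and 2206 CPM. M1N and M2W were again the highest, and the log2 fold change was -0.08 (SE 0.18, adjusted p = 0.845, edgeR). miR-29c-3p had 660, 535, 407 and 342 CPM in SD mice and 419, 689, 469 and 409 CPM in WD mice, in the same order of animals. M1N, M2N and M2W were its 3 highest libraries, and its log2 fold change was 0.03 (SE 0.22, adjusted p = 0.955, edgeR).

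The guide arms varied together across mice on the CPM scale, and their spread was smaller relative to the other mature miRNAs. The coefficient of variation over 8 mice was 19.5% for miR-29a-3p, 15.4% for miR-29b-3p and 25.7% for miR-29c-3p on the CPM scale, where counting alone would give 1.11%, 1.21% and 2.72%. As a share of mature miRNA counts the same coefficients were 6.49%, 4.74% and 11.98%. Over the 8 mice, log2 CPM of miR-29a-3p correlated with that of miR-29c-3p at r = 0.97 and with that of miR-29b-3p at r = 0.92. On the share scale these correlations were 0.77 and 0.10. The points of each correlation have the library and its depth in common, so the values are descriptions. The split of counts between miR-29a-3p and miR-29c-3p is uncertain, as said above, and its part in their correlation was not tested. miR-29c-3p kept the widest spread among the 3, from 0.392% of mature miRNA counts in TN2 to 0.557% in M1N. miR-29b-3p lay between 2.27% in M1W and 2.60% in TN1 on that scale.

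**Figure D2:**
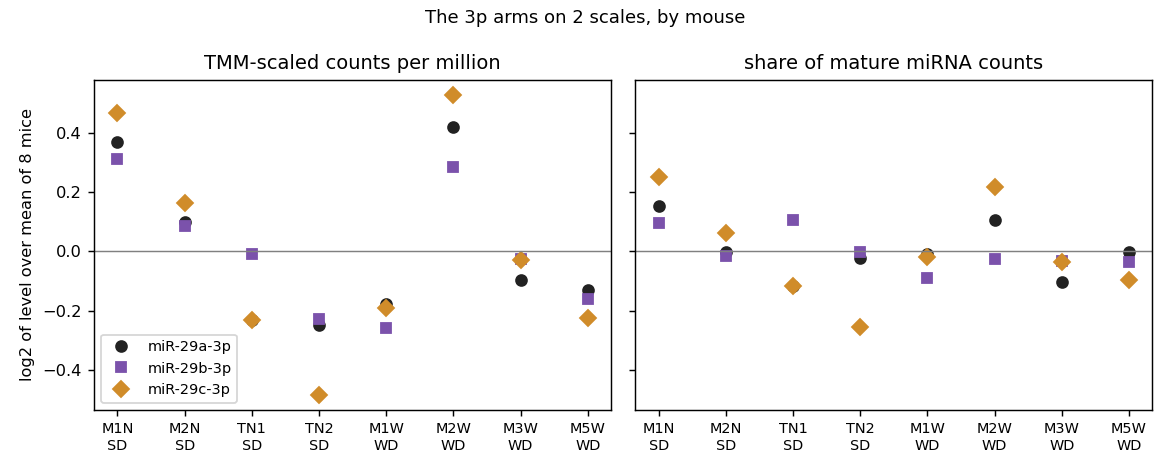
Log2 of the level of each 3p arm over its geometric mean of the 8 mice, on the CPM scale (left) and as a share of mature miRNA counts (right), for SD and WD mice. On the left M1N and M2W stand highest for all 3 arms, and on the right the coefficient of variation of miR-29a-3p is 6.49% in place of 19.5%.

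Ratios of members within a library cancel its size and its scaling. The ratio of miR-29b-3p to miR-29a-3p was 0.810, 0.834, 0.983 and 0.855 in M1N, M2N, TN1 and TN2, and 0.796, 0.768, 0.884 and 0.824 in M1W, M2W, M3W and M5W. TN1 stood alone near equal counts, and the diets overlapped. The log2 ratio differed by -0.09 between WD and SD mice (exact permutation p = 0.343, two-sided, 70 assignments, of which the smallest possible p is 0.0286). It was -0.028 without TN1, -0.0092 against M1N and M2N alone and -0.17 against TN1 and TN2 alone. miR-29c-3p amounted to 0.175, 0.171, 0.163 and 0.139 of miR-29a-3p in the SD mice and to 0.162, 0.176, 0.171 and 0.153 in the WD mice. TN2 was lowest, and the log2 difference of 0.04 was smaller than the SD of 0.15 among SD mice (exact permutation p = 0.686). It was -0.063 against M1N and M2N alone and 0.13 against TN1 and TN2 alone, and -0.036 without TN2 and 0.0051 without M2W. The largest ratio among mice exceeded the smallest by 1.28-fold for miR-29b-3p and 1.27-fold for miR-29c-3p.

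Of the 5p arms, miR-29a-5p had the largest difference between the diets, just below the study's criteria by the edgeR fit. It was counted 17, 40, 47 and 16 times in M1N, M2N, TN1 and TN2, and 48, 39, 30 and 49 times in M1W, M2W, M3W and M5W. This gave 5.83, 12.8, 14.8 and 7.41 CPM in SD mice and 15.8, 17.1, 13.8 and 15.2 CPM in WD mice. The SD mice split into a low pair, M1N and TN2, and a pair at or near WD levels, and TN1 lay above M3W. The mean was 10.2 ± 4.27 CPM in SD and 15.5 ± 1.36 CPM in WD mice (SD, n = 4 each). The log2 fold change fitted by edgeR, which is not the ratio of these means, was 0.58 with SE 0.27. That fold change of 1.49 fell short of the limit of 1.5, at an unadjusted p of 0.0514 and an adjusted p of 0.344 by edgeR. The mean log2 CPM of the groups differed by 0.70, above the log2 of that limit, 0.585. The exact permutation test over mice gave p = 0.0571 on the CPM scale and p = 0.114 for counts per mature miRNA count. The study itself listed miR-29a-5p as upregulated, 1.5-fold by sequencing, with higher levels by quantitative RT-PCR in testis and sperm. The read number it gave under this name lies near the mean count of miR-29a-3p here, 8184, and far above that of miR-29a-5p, 35.75.

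The spread of miR-29a-5p was itself unequal. Among SD mice its coefficient of variation was 41.8%, where counting alone would give 18.3%, and among WD mice it was 8.76%, below the 15.5% of counting. Leaving out M1N lowered the log2 fold change to 0.38, and leaving out TN2 lowered it to 0.47. Leaving out TN1 raised it to 0.82 and leaving out M2N to 0.70, and the criteria were then met, as they were without M3W or M5W. Because the value lies on the limit, the call also changed with the method. With column totals or upper-quartile factors the fold change was 1.55 and 1.51, with limma-voom it was 1.58, and the criteria were met in each. With DESeq2's size factors in edgeR or TMM factors of the miRNA class, both at 1.49, they were not met.

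The remaining 5p arms had smaller differences, and the diets overlapped for each. miR-29c-5p had 38, 59, 43 and 25 counts in SD mice and 39, 56, 48 and 45 in WD mice. At 13.0, 18.8, 13.5 and 11.6 CPM against 12.8, 24.6, 22.1 and 14 CPM the groups overlapped, with M2W and M3W highest, and the log2 fold change was 0.34 (SE 0.26, adjusted p = 0.521, edgeR). miR-29b-1-5p was counted 15, 14, 14 and 9 times in SD mice and 9, 19, 7 and 10 times in WD mice. The SD mice lay within 4.17 to 5.14 CPM, M2W at 8.33 CPM lay above them and the other WD mice lay below, and its log2 fold change was -0.09 (SE 0.37). miR-29b-2-5p was counted 18, 30, 16 and 5 times in SD mice and 18, 8, 8 and 12 times in WD mice. The highest and the lowest level, 9.57 CPM in M2N and 2.32 CPM in TN2, were both in SD mice, and the log2 fold change was -0.47 (SE 0.38, adjusted p = 0.535, edgeR). Without M2N it was -0.12, and without TN2 it was -0.69 and met the study's criteria.

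The choice of SD mice moved several members. Against M1N and M2N alone, miR-29a-5p had a log2 fold change of 0.73 (SE 0.31, adjusted p = 0.0941, edgeR) and miR-29b-2-5p of -0.88 (SE 0.37, adjusted p = 0.0953, edgeR). Both met the study's criteria, as did the 31.3% of small RNAs given above. In this comparison 20.8% of small RNAs had an adjusted p under 0.05, and no member did. Against TN1 and TN2 alone no member met the criteria, and the share of small RNAs with an adjusted p under 0.05 was 0.134%. There miR-29a-5p was at 0.43 (SE 0.28) and miR-29b-2-5p at 0.14 (SE 0.44). The guide arms changed sign with the pair. miR-29c-3p was at -0.27 (SE 0.21) against the M pair and at 0.40 (SE 0.19) against the TN pair, and miR-29a-3p at -0.21 (SE 0.21) and 0.27 (SE 0.17). miR-29c-5p had 0.18 and 0.50, and miR-29a-5p kept a positive value in both.

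**Figure D3:**
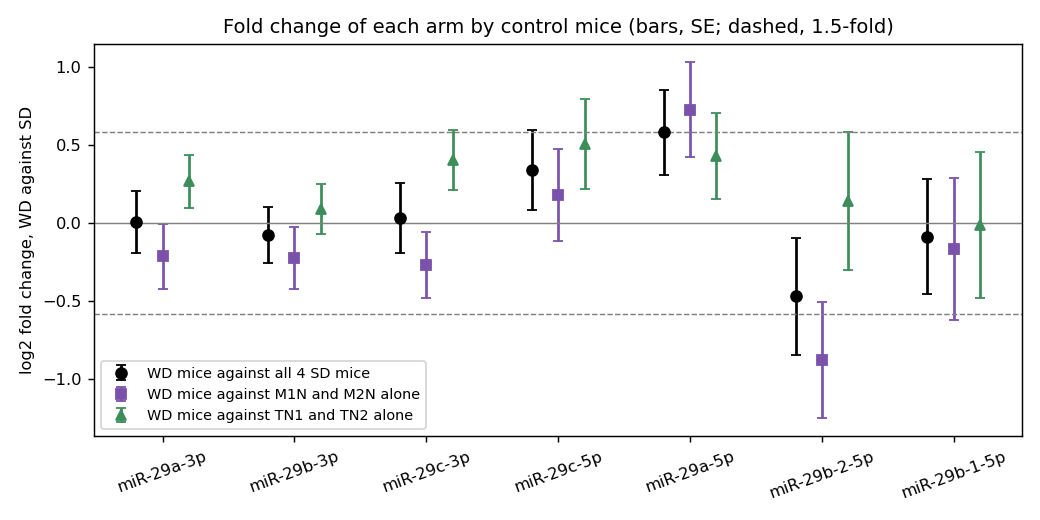
Log2 fold change of each member, WD against SD, with all 4 SD mice, with M1N and M2N alone and with TN1 and TN2 alone as controls. Bars are standard errors of edgeR's fit and dashed lines mark a fold change of 1.5. miR-29a-5p has 0.58, 0.73 and 0.43, and miR-29c-3p runs from -0.27 against the M pair to 0.40 against the TN pair.

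The balance of the arms was taken from the counts of each mouse, with intervals of the Wilson method that cover counting error only, since the reads carried no molecular identifiers. miR-29a-5p made up 0.154% (95% interval 0.0960 to 0.246) of both arms' counts in M1N and 0.405% (0.297 to 0.551) in M2N. The share was 0.590% (0.444 to 0.783) in TN1 and 0.300% (0.185 to 0.487) in TN2. In M1W, M2W, M3W and M5W it was 0.606, 0.435, 0.502 and 0.566%. The interval of M1N lay below that of each other mouse except TN2. The mean was 0.362 ± 0.183% in SD mice and 0.527 ± 0.0748% in WD mice (SD, n = 4 each). The log2 ratio of the arms differed by 0.69 (exact permutation p = 0.143). TN1 was the only SD mouse within the range of the WD mice, so leaving it out sets the groups fully apart. Without TN1 the difference was 0.98, and the exact permutation p is then by construction the smallest for 4 against 3 mice, 0.0286. Without M1N the difference was 0.33 (exact permutation p = 0.257). The difference was 1.07 against M1N and M2N alone (exact permutation p = 0.0667, the smallest that 4 against 2 mice can give) and 0.32 against TN1 and TN2 alone (exact permutation p = 0.467).

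For miR-29b both 5p arms were summed, because the 3p arm cannot be assigned to a gene. They made up 0.368, 0.533, 0.384 and 0.307% of the arms' counts in M1N, M2N, TN1 and TN2 and 0.429, 0.392, 0.285 and 0.309% in M1W, M2W, M3W and M5W. M1N was in the middle of the range here, and the log2 difference was -0.16 (exact permutation p = 0.571). It was -0.35 against M1N and M2N alone and 0.023 against TN1 and TN2 alone. Leaving out 1 mouse gave -0.010 without M2N, -0.063 without M3W, and as far as -0.28 without TN2. The split of the 5p counts between the names miR-29b-1-5p and miR-29b-2-5p, which is uncertain as said above, was uneven in some mice. miR-29b-1-5p supplied 64.3% of them in TN2 and 70.4% in M2W but 31.8% in M2N and 33.3% in M1W, and 45.5 to 46.7% in the other 4 mice. These shares rest on 14 to 44 counts per mouse, and their intervals are wide. That of M2W, 51.5 to 84.1%, lay above that of M2N, which ended at 46.6%, whereas those of TN2 (38.8 to 83.7%) and M1W (18.6 to 52.2%) overlapped every other. The log2 ratio of these arms differed by 0.12 between the diets (exact permutation p = 0.800).

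The arms of miR-29c were the least unequal of the family. Its 5p arm made up 1.93% (95% interval 1.41 to 2.64) in M1N and 3.39, 3.22 and 3.28% in the other SD mice. In M1W, M2W, M3W and M5W it made up 2.97, 3.44, 4.51 and 3.31%. M1N was the lowest library and M3W the highest, and the diets overlapped. The log2 difference was 0.29 (exact permutation p = 0.343), and 0.10 without M1N. It was 0.47 against M1N and M2N alone and 0.12 against TN1 and TN2 alone. The 5p share of M1N was thus the lowest of 8 for both miR-29a and miR-29c. Over all 149 names with both arms counted in every mouse, M1N held the lowest 5p share of the 8 mice in 35 names, where the next mouse held it in 19. It held the lowest share of the minor arm in 28 names, or 18.8%, and its median deviation on the log2 scale was -0.01.

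**Figure D4:**
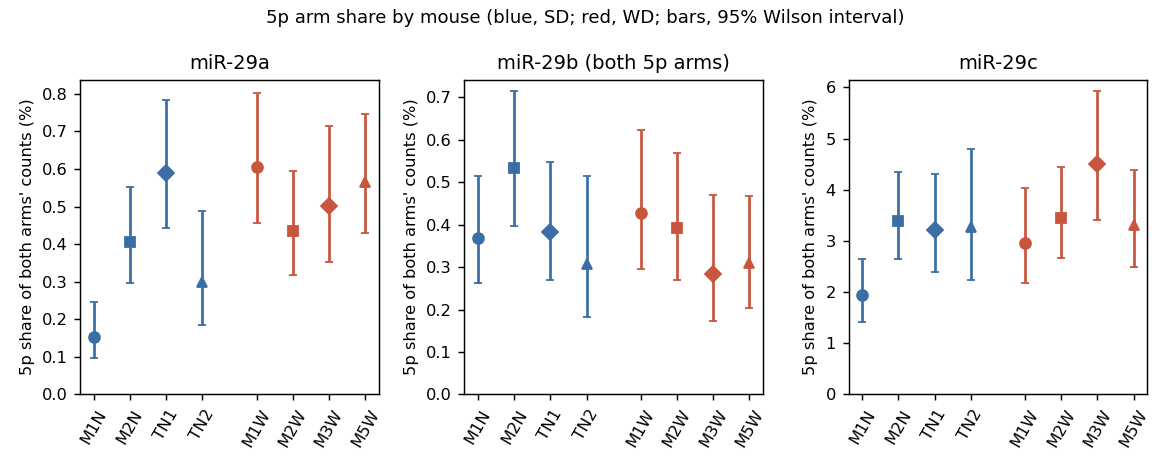
Share of the 5p arm among the counts of both arms, in percent, for miR-29a, miR-29b and miR-29c in every mouse, with SD mice in blue and WD mice in red. Bars are 95% Wilson intervals of the counts. M1N is lowest for miR-29a (0.154%) and miR-29c (1.93%) but not for miR-29b (0.368%).

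Set beside other miRNAs, the arms of miR-29a were strongly unequal and many names had a larger difference between diets. Of 191 names with both arms listed, 149 had a count of each in every mouse. The median share of the minor arm was 15.1%, against 0.435% for miR-29a, which ranked 11 of 149 by inequality, and 3.16% for miR-29c, which ranked 39. The absolute difference between diets ranked miR-29a 37 and miR-29c 90 of 149. Only 72 of the 149 names had at least 10 counts of each arm in every mouse. Most names ranked above miR-29a had fewer, and their ratios are noisier. SD and WD mice did not overlap in 5.37% of the 149 ratios, and miR-29a and miR-29c were not among them. The lowest adjusted exact permutation p over the 149 names was 0.501, and with a smallest p of 0.0286 this test could hardly pass after adjustment. Among names with at least 10 counts of each arm in every mouse, miR-340 had the largest positive difference in the log2 ratio of 5p to 3p, 1.30, and let-7i the largest negative difference, -0.63.

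**Figure D5:**
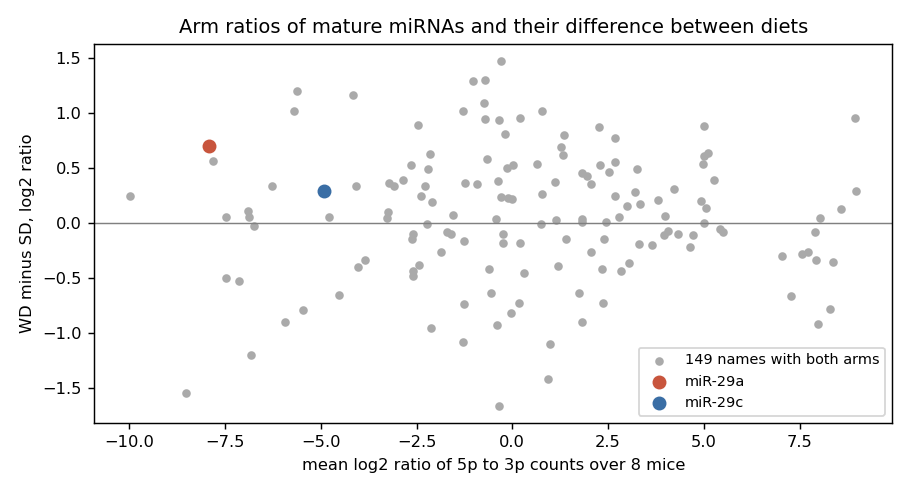
Difference of the log2 ratio of 5p to 3p counts between WD and SD mice against the mean log2 ratio over 8 mice, a point for each of 149 names with both arms counted in every mouse. miR-29a (red) lies at -7.92 and 0.69 and miR-29c (blue) at -4.93 and 0.29, both inside the range of the other names.

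The mature miRNAs whose log2 CPM followed each member most closely over the 8 mice were picked from 359 that passed the filter, outside the family. For miR-29a-3p these were miR-322-5p (r = 0.98), miR-670-5p (0.97) and miR-126-5p (0.96). For miR-29b-3p they were miR-320-3p (0.97), miR-744-5p (0.96) and miR-463-5p (0.96), and for miR-29c-3p miR-99b-5p (0.96), miR-322-5p (0.96) and miR-10a-5p (0.96). Without the 2 mice farthest from the median, M1N and M2W for all 3 arms, these values lay between 0.86 and 0.96. miR-29a-5p followed miR-743b-3p (0.92), miR-15b-3p (0.90) and miR-148a-3p (0.88), which fell to 0.45, 0.59 and 0.28 without M1N and TN2. Its correlation with its own partner arm was -0.18. miR-29b-1-5p followed miR-351-3p (0.93), miR-376c-3p (0.92) and miR-378-3p (0.90), at 0.78 to 0.83 without M1W and M2W. miR-29b-2-5p followed miR-15b-5p (0.87), miR-467d-3p (0.85) and miR-701-5p (0.82), at 0.60 to 0.72 without M2N and TN2. miR-29c-5p followed miR-142-5p (0.92), miR-470-3p (0.90) and miR-210-3p (0.85), which fell to 0.69, 0.60 and 0.37 without M2W and M3W. As the closest of 359 candidates over 8 libraries, these are descriptions only.

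Other miRNAs known from the same processes were counted by these rules, with a median log2 fold change of -0.01 over all small RNAs tested and 0.03 over the miRNA class beside them. The counts of called miRNAs stand against 10.7% called of all small RNAs and 15.1% of the miRNA class. Of 6 other miRNAs known to target DNA methyltransferase mRNAs, 1 was higher by the study's criteria and none was lower. The median was 0.35, and all 6 log2 fold changes were positive. The miRNA called was miR-101b-3p at 0.64 (SE 0.23, adjusted p = 0.318, edgeR), and its relative miR-101a-3p followed at 0.41 (SE 0.19). Summed, the list took 0.824% of mature counts in M1N and 1.06% in M2N, but 1.38% in TN1 and 1.57% in TN2, beside 1.40 to 1.65% in WD mice. None of its members passed an adjusted p under 0.05. Of the 10 fibrosis and matrix miRNAs tested 1 was higher, miR-200a-3p at 0.69 (SE 0.25), a miRNA of the epithelial miR-200 family. miR-192-5p was at -0.47 (SE 0.24). The median of this list was 0.17, with 7 positive and 3 negative log2 fold changes. Of the 11 insulin and glucose miRNAs tested none met the criteria. Their median was 0.17, with 6 positive and 5 negative log2 fold changes. miR-27a-3p and miR-143-3p, with the lowest p, had 0.57 (SE 0.21) and 0.47 (SE 0.26).

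Markers of the cell types of the testis were counted in the same way, against the same 10.7% and 15.1% called. Of 14 germ cell miRNAs 1 was higher and 1 lower by the criteria, with a median of 0.01. miR-449a-5p was at -0.62 (SE 0.24) and miR-34c-3p at -0.50 (SE 0.20), whereas miR-465a-5p, the member called higher and named after its value was seen, was at 0.60 (SE 0.34). Of the 14, 7 had a positive and 7 a negative log2 fold change. None of 7 stromal and smooth muscle miRNAs met the criteria, and they took 4.32 to 4.77% of mature counts in SD mice and 4.23 to 5.69% in WD mice. Their log2 fold changes were positive for 5 and negative for 2. miR-143-3p and miR-22-3p, with 0.18 (SE 0.20), had the lowest p of that list. The endothelial miR-126-3p (-0.0022, SE 0.22) and miR-126-5p (-0.11, SE 0.25) did not meet them either. The endothelial pair took 1.77% of mature counts in M1N, 1.88% in M2N and 1.92% in M2W, and 1.37 to 1.73% in the other mice. Its 3 highest libraries were also those of miR-29a-3p on the CPM scale. As a share of mature counts miR-29a-3p was at 3.19% in M1N, 3.09% in M2W and 2.86% in both M2N and M5W. The endothelial pair was at 1.39% in M5W. The other lists were ordered differently. The stromal list was highest in M2W (5.69%), M3W (4.83%) and M2N (4.77%), the blood list in M1N (0.485%), M2W (0.454%) and TN1 (0.412%), and the germ cell list was lowest in M2W (14.9%) and M2N (17.5%). Of 6 blood cell miRNAs 1 was higher, miR-142-3p at 0.60 (SE 0.26), and 1 lower, miR-150-5p at -0.64 (SE 0.35). No list had a member at 0 counts in all mice, and the part of these cell types in the levels of the miR-29 family was not tested.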

How the data were processed

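Small RNA of testis from 4 SD and 4 WD mice was sequenced on a SOLiD instrument, 1 library per mouse. Reads were cut at the adaptor or to 31 bases and aligned by the authors with Bowtie to mm9, with up to 2 mismatches per read. Annotation used miRBase release 18 and other databases, and the deposited values are raw counts per small RNA. The Bowtie version and the treatment of reads that match several places are not given in the sources used here. Groups came from sample titles.

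Counts were tested with edgeR 4.0.16 in R 4.3.3 (TMM factors, filterByExpr with minimum count 10 and minimum total 15, quasi-likelihood test, two-sided, Benjamini-Hochberg over 16955 small RNAs). Standard errors were derived from the F statistic. Ratios were compared by exact permutation of mice over every assignment. SciPy 1.17.1 gave the Wilson intervals and adjusted the p of the arm ratios. The separate mice are the replicates. Scripts were tested on simulated data. DESeq2 1.42.0, limma 3.58.1 and other scalings, filters and subsets served as alternatives. The share taken by the family was given without a test.

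Named miRNAs were the members, entries of their loci, the 3 most correlated mature miRNAs of each, rank neighbours, the 2 members of each list with the lowest p, and the largest arm ratio changes. The members and lists were chosen with earlier results of these data known. Hairpin coordinates come from an exact match to NCBIM37 (mm9) and sequences from RefSeq. Figures were drawn with matplotlib 3.10.9.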

Additional observations from a re-analysis of the deposited data

Results flagged for a closer look

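In each diet group the mouse with the highest and the lowest value was compared with the rest for the 7 members, 5 ratios and the family's share, 26 groups of 4 mice in all, and 4 of them held a mouse whose gap to its nearest neighbour exceeded Dixon's 95% critical value as a share of the range. Chance gives about 1.3 such groups. Among WD mice, M2W stood apart for miR-29a-3p with 3913 CPM, where the other WD mice had 2589 to 2741. M2W also stood apart for miR-29b-1-5p with 8.33 CPM against 2.96 to 3.23, on 19 counts against 7 to 10. M1W stood apart for miR-29b-2-5p with 5.92 CPM against 3.51 to 3.73, on 18 counts against 8 to 12. Among SD mice, M1N stood apart for the log2 ratio of miR-29c-5p to miR-29c-3p, at -5.66 against -4.91 to -4.83 in the others. M2W was also the library with the highest miRNA class share (12.7%), whose part in these values was not tested.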

How the results depend on the processing

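No member had an adjusted p under 0.05 in any of the 138 planned fits across 20 alternatives, and the log2 fold changes of miR-29a-5p and miR-29c-5p stayed positive in all of theirs. Adjusting within the miRNA class also left 0 members under 0.05. The number of members meeting the study's criteria was 0 as reported, 1 with limma-voom, column totals, upper-quartile factors, at least 10 counts in every mouse or no fold change limit, and 2 against M1N and M2N alone. The M numbers were not taken as pairs (r = -0.06, a value that is the same for both pairs by construction with 2 mice a group), and 1 member met the criteria in M1N, M2N, M1W and M2W with the number as a replicate block and 1 without the block.

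Sign changes were as follows. miR-29a-3p had -0.00056 with TMM factors of the miRNA class, -0.21 against M1N and M2N, -0.11 with the replicate block and -0.087 in the same 4 mice without it. miR-29c-3p had -0.27, -0.14 and -0.11 under the last 3 of these. miR-29b-1-5p had 0.14 with the replicate block and 0.18 without it. Against TN1 and TN2, miR-29b-3p had 0.088, miR-29b-2-5p 0.14 and the arm ratio of miR-29b 0.023. The ratio of miR-29c-3p to miR-29a-3p was -0.063 against M1N and M2N. With each mouse left out in turn, values ran from -0.15 to 0.14 for miR-29a-3p, -0.20 to 0.019 for miR-29b-3p, -0.17 to 0.21 for miR-29c-3p, -0.55 to 0.070 for miR-29b-1-5p, -0.69 to -0.12 for miR-29b-2-5p, 0.38 to 0.82 for miR-29a-5p and 0.17 to 0.51 for miR-29c-5p. They ran from 0.33 to 0.98 for the arm ratio of miR-29a, from -0.036 to 0.074 for the ratio of miR-29c-3p to miR-29a-3p, and from 0 to 1 for the members meeting the criteria. The cause of these changes was not tested. The ratios other than those of the miR-29a arms and of miR-29b-3p to miR-29a-3p, and a permutation test of miR-29a-5p per mature miRNA count, were added after seeing the data. The 5p arms of miR-29b rest on 5 to 30 counts per mouse, which limits what could be detected for them.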
